A study of Sus scrofa with 23 samples.

Results

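Pig embryos cloned by somatic cell nuclear transfer were compared with pig embryos fertilized in vivo at the 8-cell stage, the stage at which the embryo of this species has just taken over transcription from the oocyte. The comparison rests on 3 of the 23 samples of the series, 1 pool of 8-cell embryos for each of 3 groups. Genes were placed in a set by a fixed rule: the FPKM value of the gene, which is the number of sequenced fragments scaled to the length of the gene and to the depth of the library, had to lie on the same side of the in vivo value in both clone samples. A gene counted as lower or higher when log2(FPKM + 1) differed by more than 1, provided that either sample of the pair reached an FPKM value of 1. The table holds 8603 genes and its name marks it as one of differentially expressed genes, so shares of all genes below are shares of this table and not of the whole transcriptome. Of these genes 7685 could be compared. Both clone samples were lower than the in vivo sample for 999 of them (825 with a gene symbol) and higher for 660 (506 with a symbol).

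The IV-D embryos were Duroc embryos flushed from sows that had been inseminated with the semen of 1 Duroc boar. NT-D embryos were clones made from an ear fibroblast line of that 1-year-old boar, and NT-LW embryos were clones made from an ear fibroblast line of a 1-year-old boar of the Chinese breed Laiwu. Both kinds of clone used slaughterhouse oocytes of hybrid sows, matured in vitro and emptied of their nucleus. Both were grown in PZM3 medium under low oxygen, whereas the IV-D embryos were never cultured. The clones were activated by electric pulses and the IV-D embryos by fertilization. Donor nucleus, activation, oocyte origin, breed of the oocyte, maturation and culture therefore differ together between clones and IV-D embryos, and their effects cannot be told apart. The time of collection may differ too and was not compared here. Each clone group stands for 1 cell line of 1 animal, every clone carries a male genome, and the IV-D pool mixed male and female embryos that were not sexed. The study also sequenced replicate samples of 8-cell NT-D and IV-D embryos, which are not analysed here. With 1 sample per group there is no spread between replicates, no difference was tested, and all folds below compare single libraries with intervals that cover counting error only. Both clone samples were set against the same IV-D sample, so a gene found in both comparisons is not an independent repeat.

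A mammalian egg is loaded with messenger RNA by the oocyte. The first cleavages run on this store, which is then destroyed while the embryonic genome is switched on, a handover called the maternal-to-zygotic transition. The study places activation in the pig mainly between the 2-cell and the 8-cell stage. In its in vivo embryos the step from 4-cell to 8-cell had the most differing genes. Clearance needs factors such as BTG4, which brings the deadenylase complex to messenger RNA, and activation supplies the ribosomes, metabolic enzymes and junction proteins used at compaction. In a clone the genome that must be switched on is that of a differentiated cell.

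The 8-cell libraries held 20549009 fragments for IV-D, 19290635 for NT-D and 16360158 for NT-LW. Markers of oocyte and early embryo were found in all 3, and summed to FPKM values of 115, 276 and 275 over the 10 listed genes that the table holds. Fibroblast markers from the marker list were low, with sums of 2.29, 3.25 and 4.22 over 5 genes, none of them at 0 fragments in any of the 3 samples. Of 11 cumulus cell markers the table holds 1, HAS2, at FPKM values of 0.241, 0 and 0.921. Transcripts of the mitochondrial genome took 11.8% of all fragments in IV-D and 21.9% and 20.9% in NT-D and NT-LW embryos. The part of this share in the results was not tested.

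In NT-D embryos 1297 of 7441 genes were lower (17.4%) and 807 higher (10.8%) than in IV-D embryos. For NT-LW embryos 1316 of 7618 genes were lower (17.3%) and 1244 higher (16.3%). The 999 genes lower in both clones were 13.0% of the genes compared, and the 660 higher in both were 8.59%. As a yardstick with the same rule, NT-D lay below NT-LW for 3.99% and above it for 2.15% of 7337 genes. Of all genes called in both clones 60.2% were lower, and rescaling each sample to the same summed FPKM changed the numbers to 1503 lower and 571 higher, or 72.5% lower. That rescaling moved the median difference of all genes in each comparison from -0.12 to -0.37 for NT-D and from -0.02 to -0.27 for NT-LW embryos on the log2 scale. Before it, FPKM values summed to 517064 for IV-D, 620204 for NT-D and 625152 for NT-LW. Mitochondrial transcripts held 126158, 234349 and 225453 of these sums, in the same order. Since the clone sums were larger, rescaling lowered every clone FPKM value relative to IV-D, and the 72.5% includes this shift. How much of it came from mitochondrial transcripts was not tested. For the gene lists described later, the background over all genes compared in both clones is 13.0% lower and 8.59% higher, with medians of -0.10 for NT-D and -0.01 for NT-LW. Median-ratio scaling, in which the typical gene has the same level in all samples, gave 947 lower and 698 higher.

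**Figure D1:**
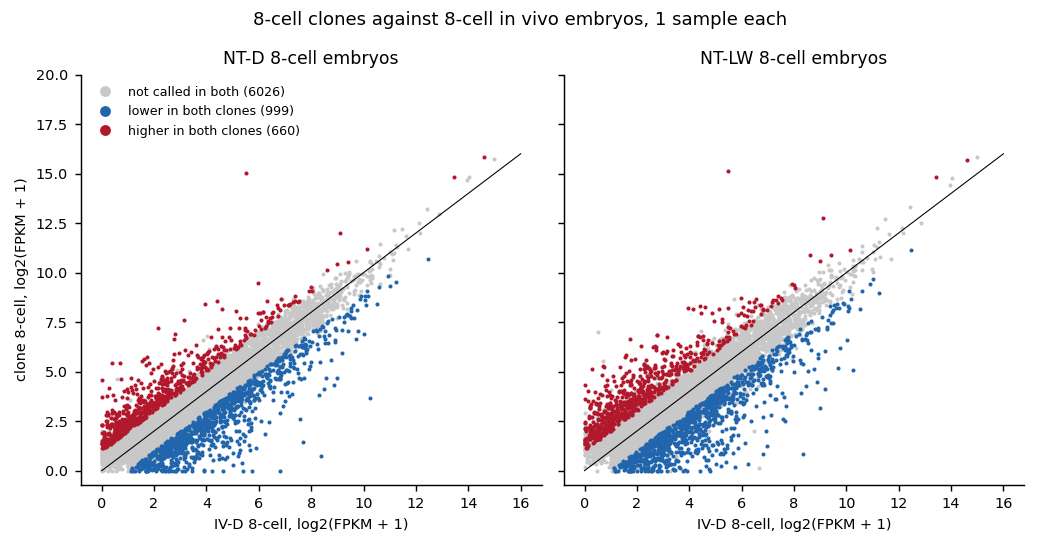
Level of each compared gene in IV-D 8-cell embryos (horizontal) against NT-D and NT-LW 8-cell embryos (vertical), both as log2(FPKM + 1), 1 sample each. Blue points are the 999 genes lower in both clones, red points the 660 higher in both, and the line marks equal levels; in each panel 1 red point lies far above all others.

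The rule has a sharp edge. Just inside it on the lower side were TNNT1, GCA and POLR3A, and just outside were ATP6V0B, WRAP53 and GCC2. The smaller of the 2 log2 differences was 1.0004 for TNNT1 and 1.0016 for GCA, and for ATP6V0B, at FPKM values of 132, 65.4 and 41.8 in IV-D, NT-D and NT-LW embryos, it was 0.997. On the higher side ANKRD12 and the mitochondrial ND6 lay just inside. UBE2D3, a ubiquitin-conjugating enzyme at 189, 378 and 424, lay just outside with a smaller difference of 0.998.

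The 15 genes with a symbol that lay furthest below IV-D in both clones, among those with an IV-D value of at least 10, were in order TYR, ATP6V0D2, NAA11, CLDN6, RNASE1, ASZ1, PLD6, ARG1, DSC2, CKB, RPL10L, ASS1, EFHD1, CA2 and ENO1. All 15 reached FPKM 5 in the IV-D morula and lay more than 1 log2 unit above the IV-D oocyte. The same held for 68.5% of all lower genes and for 2812 of the 7685 genes compared. Of the 15, 10 had an FPKM value under 1 in the IV-D oocyte, against 50.6% of the lower genes and 25.3% of all compared. The 15 were chosen on a high IV-D 8-cell value, so these counts describe them only. Among the 15 were enzymes of energy and nitrogen metabolism. CKB, the creatine kinase that buffers ATP, had FPKM values of 504, 24.8 and 7.89 in IV-D, NT-D and NT-LW 8-cell embryos. It was 20.3-fold (95% interval 18.9 to 21.8) lower for NT-D and 63.9-fold (95% interval 55.9 to 73.5) lower for NT-LW. Both clone values were far under the in vivo one, yet above the values of 0.599 and 0.376 of their own 4-cell stage.

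ENO1, the enolase of glycolysis, was at 112, 6.56 and 5.64 in the same order, a deficit of 17.1-fold (95% interval 15.1 to 19.4) and 19.9-fold (95% interval 17.2 to 23.1). It was the only one of 13 compared glycolysis genes called lower in both clones, and none was called higher. ARG1, the arginase that ends the urea cycle, was at 309, 13.1 and 14.3, or 23.7-fold (95% interval 21.6 to 26.01) and 21.7-fold (95% interval 19.7 to 23.9) below IV-D embryos. ASS1, which makes the precursor of arginine, was at 38.1, 1.07 and 0.77. CA2, a carbonic anhydrase, was at 31.6, 0.842 and 1.03, and RNASE1, a secreted ribonuclease, at 206, 1.73 and 8.48. These genes were chosen for a large deficit in both clones, so that both clone values lay far under the IV-D value is no separate result. RNASE1 differed between the clones as well, at 1.73 for NT-D and 8.48 for NT-LW.

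Other genes of this group differed in kind. ATP6V0D2, a subunit of the proton pump of lysosomes, was at 191, 5.07 and 5.003 and had been under 1 in all 3 groups at the 4-cell stage. EFHD1, a calcium-binding protein of mitochondria, was at 47.9, 1.49 and 1.88. TYR, the tyrosinase of melanin synthesis, had 2116 fragments in IV-D, 0 in NT-D and 5 in NT-LW, with FPKM values of 52.9, 0 and 0.157. The NT-D value was at least 662-fold lower when its count of 0 was replaced by 3 fragments, and the NT-LW value was 337-fold (95% interval 144 to 1039) lower. In IV-D embryos TYR was already at 25.3 at the 4-cell stage, against 1.09 and 1.07 in the clones.

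**Figure D2:**
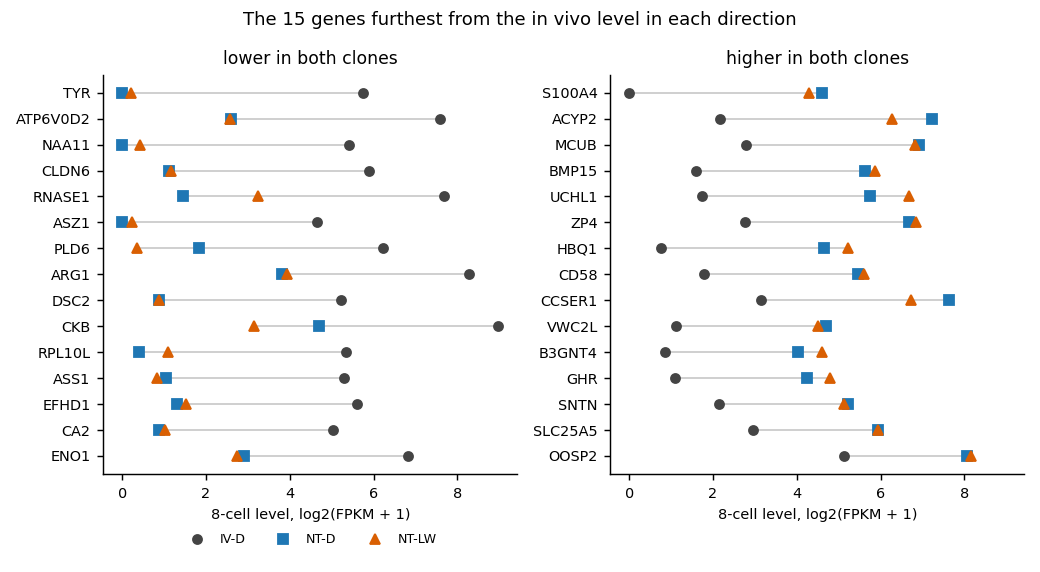
FPKM values, as log2(FPKM + 1), of the 15 genes furthest below (left) and the 15 furthest above (right) the in vivo level in both clones at the 8-cell stage, 1 sample per symbol. Circles are IV-D, squares NT-D and triangles NT-LW embryos, and the grey line joins the lowest and the highest value. The squares and triangles lie together at the far end from the circle for most genes, which the choice of these genes favours.

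Several genes known from germ cells were among the lowest. ASZ1 (ENSSSCG00000016627, chr18:28859140-28910927 of Sscrofa11.1), a germ cell protein of the pathway that makes piRNA, the small RNA class that silences transposons, was at 23.9, 0 and 0.171 with 702, 0 and 4 fragments. It was at least 219.7-fold lower for NT-D and 139.7-fold (95% interval 54.3 to 514) lower for NT-LW. PLD6, the nuclease that cuts piRNA precursors, was at 74.02, 2.57 and 0.275. NAA11, a catalytic subunit of the N-terminal acetyltransferase, was at 41.5, 0 and 0.353, and its X-linked paralog NAA10, used in most tissues, was lower as well at 49.8, 18.7 and 11.5. RPL10L, a copy of the ribosomal protein gene RPL10 used in the testis, was at 39.5, 0.321 and 1.14. RPL10L and RPL10 are near-identical copies, so reads between them may have been split. RPL10 itself, an X-linked gene, was lower in both clones as well, at 708, 227 and 257.

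Outside the first 15, and singled out after the values were seen, HORMAD1 (chr4:98447298-98469650) and SYCP3 (chr5:82492744-82501068), which build the chromosome axis of meiosis, showed the same order. HORMAD1 was at 81.9, 4.46 and 4.59, a deficit of 18.4-fold (95% interval 15.7 to 21.7) and 17.8-fold (95% interval 15.04 to 21.3). SYCP3 was at 91.996, 10.9 and 8.77, or 8.46-fold (95% interval 7.08 to 10.2) and 10.5-fold (95% interval 8.49 to 13.1) below IV-D embryos. Unlike CKB or ENO1 these genes were also stored in the oocyte, with IV-D oocyte values of 74.2 and 95.97. From the 4-cell to the 8-cell stage HORMAD1 gained in IV-D embryos, from 34.4, and lost in the clones, from 26.6 and 20.2.

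The bases upstream of ASZ1, HORMAD1 and SYCP3 are shown as examples of genes lower in both clones. The 3 share that deficit, for which they were picked, and not their course in vivo. ASZ1 lay higher in the IV-D morula than in the IV-D oocyte, whereas HORMAD1 and SYCP3 were stored in the oocyte. Each run is the 250 bases before the annotated gene start in the RefSeq annotation of Sscrofa11.1, 5′ to 3′ on the strand of the gene, which is the plus strand for all 3. Capitals mark matches on either strand to any of 7 motifs, which were the E-box CACGTG, the E2F motif TTCCCGC, the GC box GGGCGG, the CCAAT box spelled as named, the TATA box TATAAA, the AP-1 motif TGACTCA and the TEAD motif CATTCC.
ASZ1, chr18:28858890-28859139: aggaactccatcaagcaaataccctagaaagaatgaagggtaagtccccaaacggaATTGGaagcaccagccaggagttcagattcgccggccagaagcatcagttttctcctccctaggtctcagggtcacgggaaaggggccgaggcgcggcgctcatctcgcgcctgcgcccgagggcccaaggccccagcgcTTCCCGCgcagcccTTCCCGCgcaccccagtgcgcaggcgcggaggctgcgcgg
HORMAD1, chr4:98447048-98447297: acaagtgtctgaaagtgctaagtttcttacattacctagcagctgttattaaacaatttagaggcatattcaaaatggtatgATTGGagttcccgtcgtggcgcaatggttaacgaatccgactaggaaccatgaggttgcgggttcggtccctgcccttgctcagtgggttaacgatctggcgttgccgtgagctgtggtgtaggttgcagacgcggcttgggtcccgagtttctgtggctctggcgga
SYCP3, chr5:82492494-82492743: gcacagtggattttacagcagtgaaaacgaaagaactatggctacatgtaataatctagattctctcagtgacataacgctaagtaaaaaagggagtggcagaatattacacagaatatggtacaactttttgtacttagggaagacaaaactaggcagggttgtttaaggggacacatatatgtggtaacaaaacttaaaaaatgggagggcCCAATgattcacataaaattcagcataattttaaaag

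All 3 hold CCAAT, and ASZ1 alone holds TTCCCGC, at 2 places, while none of the other motifs was found in these windows. Over all compared genes with an upstream sequence, 34.8% of 6137 held CCAAT and 8.25% held TTCCCGC. Among the genes lower in both clones the shares were 38.4% and 9.17% of 763, and among those higher in both 36.7% and 6.51% of 461. Among 46 genes lower at both the 8-cell and the morula stage 26 held CCAAT (56.5%) and 3 held TTCCCGC (6.52%). The runs differ in base makeup, with 22 CpG pairs upstream of ASZ1, 14 of HORMAD1 and 2 of SYCP3, against a median of 17 over all compared genes. A match describes the letters alone.

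Genes of cell contact had the lowest medians among the lists of gene function. Of 25 compared genes of junctions and polarity, 11 were lower in both clones, 0 were higher and 14 were neither, and the median log2 difference was -1.08 for NT-D and -0.85 for NT-LW, against -0.10 and -0.01 over all genes compared. CLDN6, a tight junction claudin of early embryos, was at 57.9, 1.18 and 1.23 in IV-D, NT-D and NT-LW embryos, 49.04-fold (95% interval 30.5 to 84.6) and 47.1-fold (95% interval 28.4 to 84.6) lower. DSC2, a cadherin of desmosomes, was at 36.3, 0.843 and 0.831. PKP2 and JUP, which tie desmosomes to the cytoskeleton, were at 7.67, 0.954 and 0.136 and at 6.23, 0.807 and 1.07. CTNNA1, the catenin that links cadherins to actin, was at 12.9, 2.84 and 2.12. CDH1, the cadherin of compaction, lay below IV-D in both clones at 33.9, 12.1 and 18.6 but passed the rule in NT-D alone.

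Of 17 compared genes of trophectoderm and the Hippo pathway 5 were lower in both (29.4%, against 13.0% of all genes) and 0 higher, with medians of -0.35 and -0.42. TEAD4, the transcription factor that starts the trophectoderm program, was at 14.5, 3.17 and 1.15, or 4.56-fold (95% interval 3.83 to 5.47) and 12.5-fold (95% interval 9.32 to 17.2) lower. WWTR1, a coactivator of TEAD factors, was at 15.8, 3.07 and 5.93, and its relative YAP1, stored in the oocyte, was at 3.02, 5.38 and 6.70 and not called. AMOT, which holds YAP in the cytoplasm, was at 4.29, 1.64 and 1.51. The keratin gene KRT18 was low in all groups at 2.21, 0 and 0.187. DAB2, an endocytic adaptor, was at 2.997, 0.418 and 0.657. CCN1 and CCN2, targets of YAP and TEAD factors, lay above IV-D embryos in both clones without passing the rule, at 1.16, 3.01 and 2.66 and at 33.5, 62.7 and 56.2, and with a pseudocount of 0.1 the list had 3 higher members.

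Among 16 compared pluripotency factors the clones were not uniformly low. KLF17 (at 16.9, 6.23 and 3.56), KLF5 (27.1, 7.91 and 7.39) and ESRRB (3.37, 1.14 and 0.744) were lower in both clones. DPPA5, which is stored in the oocyte, was higher in both at 29.9, 96.2 and 189.5. NANOG was at 78.1, 75.7 and 29.8, lower by the rule in NT-LW embryos alone. KLF4 was at 61.3, 84.6 and 79.3, NR5A2 at 9.47, 11.3 and 11.14 and DPPA2 at 271, 241 and 175, and none of these passed the rule in either clone. MYC, at 3.76, 2.98 and 1.30, was lower in NT-LW alone.

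Of 15 compared genes of the immediate-early list, which answer signals rapidly in cultured cells, 6 were lower and 2 higher in both clones, with medians of -0.71 and -0.81. FOS, a subunit of AP-1, was at 7.23, 1.83 and 1.32, and DUSP1, a phosphatase of MAP kinases, at 38.9, 14.9 and 12.1. SNAI1, a repressor of epithelial genes, was at 18.8, 3.97 and 0.87, and HES1, a target of Notch, at 11.9, 3.15 and 4.21. KLF10 and IER2 were lower as well. JUN, the partner of FOS, lay on the other side at 0.522, 2.95 and 2.07, together with IER3 at 4.23, 10.8 and 14.9, which had an IV-D oocyte value of 104. With median-ratio scaling the difference of JUN in NT-LW embryos was 0.98 and no longer passed the rule.

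Of 75 compared genes of ribosome biogenesis 19 were lower in both clones (25.3%, against 13.0% of all genes) and 0 higher, with medians of -0.60 and -0.67. FBL, the methyltransferase of ribosomal RNA, was at 118, 52.4 and 38.3, and NCL, nucleolin, at 297, 133 and 142. UTP4, of the small subunit processome, was at 219, 65.3 and 62.9, and DKC1, the X-linked pseudouridine synthase, at 24.1, 8.23 and 6.51. Of 42 translation initiation factors 7 were lower (16.7%) and 0 higher, among them EIF3F at 59.7, 13.8 and 12.8 and EIF4G1, the scaffold of the cap complex, at 15.1, 3.44 and 4.47. Of 44 cytosolic ribosomal proteins 7 were lower (15.9%) and 0 higher, and of 58 mitochondrial ones 11 were lower and 1 higher. The shares of initiation factors and cytosolic ribosomal proteins were near the 13.0% of all genes. RPLP0 was at 1160.4, 448 and 410.4 and RPL4 at 725, 298 and 275, and MRPL37 at 106, 23.8 and 20.5. The median of the cytosolic ribosomal proteins was -0.35 for NT-D and -0.05 for NT-LW, and 37 of the 44 were not called in both clones. With rescaling to the same sum 30 genes of ribosome biogenesis, 12 initiation factors and 17 mitochondrial ribosomal proteins were lower, against 1503 of all genes.

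**Figure D3:**
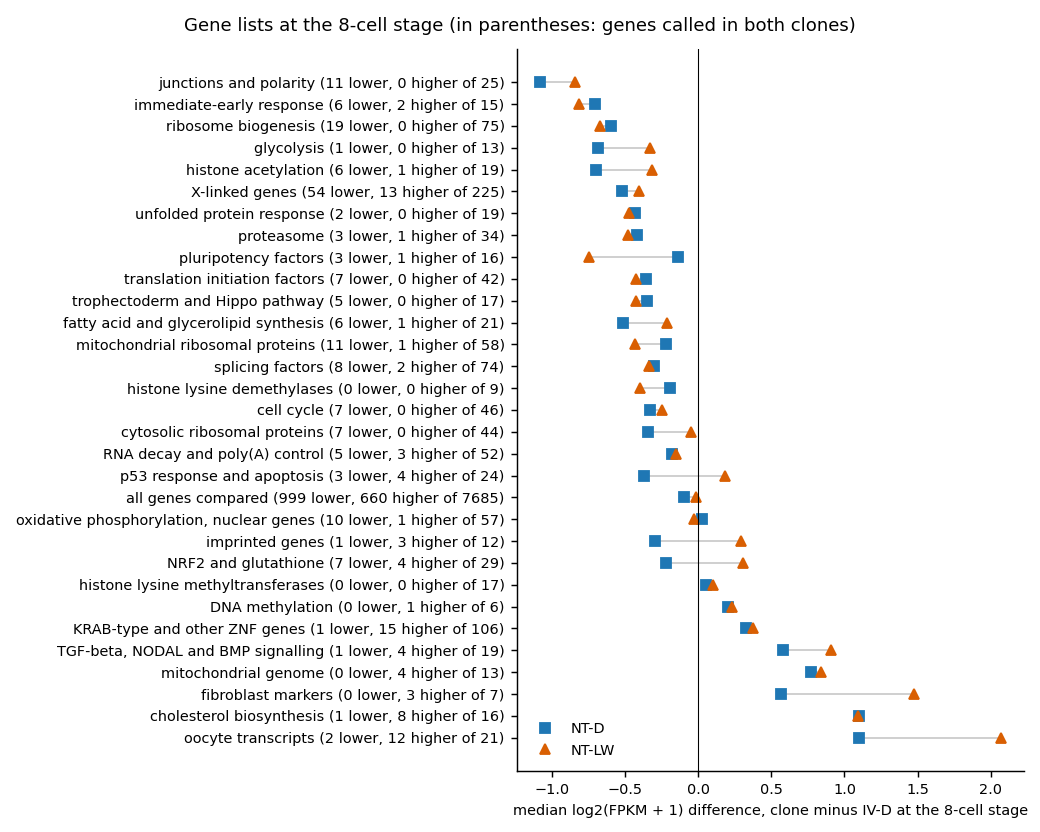
Median difference in log2(FPKM + 1) between clone and IV-D 8-cell embryos over the compared genes of each list, squares for NT-D and triangles for NT-LW, 1 sample per group. Junction genes have the lowest medians, with 11 of 25 lower in both clones, and oocyte transcripts the highest, with 12 of 21 higher. Cholesterol biosynthesis, with 8 of 16 higher, comes next for NT-D, while for NT-LW the fibroblast list lies between them.

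Of 57 nuclear genes of oxidative phosphorylation 10 were lower in both and 1 was higher, while the list's median was 0.03 for NT-D and -0.03 for NT-LW. When the samples were rescaled to the same sum the median dropped to -0.23 and -0.30. The list then had 18 lower genes, against 1503 of all genes. COX4I1, a subunit of cytochrome oxidase, was at 2056, 642 and 828, and ATP5F1A, of ATP synthase, at 727, 207 and 174. NDUFB2, a complex I subunit, was the member that was higher, at 81.2, 188 and 270.0. The mitochondrial genome lay on the other side. Of its 13 genes 4 were higher in both clones and 0 lower, with COX1 at 11068, 29134 and 28576 and ATP6 at 25044, 58734 and 52843. With rescaling to the same sum the number was 1.

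Lipid genes lay on both sides. Of 21 compared genes of fatty acid and glycerolipid synthesis 6 were lower and 1 higher. SCD, the desaturase that makes oleic acid, was at 31.9, 7.33 and 9.31, and ELOVL7, an elongase, at 37.1, 2.996 and 5.62. Of 16 compared genes of cholesterol biosynthesis 8 were higher and 1 lower, with a median of 1.10 in each clone. SQLE, the squalene epoxidase, was at 6.20, 29.4 and 24.7. MSMO1, which removes methyl groups from the sterol ring, was at 77.4, 374 and 370.2, 4.83-fold (95% interval 4.65 to 5.02) and 4.78-fold (95% interval 4.60 to 4.97) higher. FDFT1, the squalene synthase, at 11.5, 56.6 and 76.9, and HSD17B7, at 18.7, 69.4 and 80.7, had high oocyte stores, whereas CYP51A1 and IDI1 had IV-D oocyte values of 4.69 and 5.01. INSIG1, which holds the sterol sensor in the endoplasmic reticulum, was at 1.10, 4.90 and 4.96. The exception was NSDHL, an X-linked enzyme of the same pathway, at 47.9, 5.18 and 3.42.

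The 15 genes furthest above the in vivo level, with at least 10 in both clones, were S100A4, ACYP2, MCUB, BMP15, UCHL1, ZP4, HBQ1, CD58, CCSER1, VWC2L, B3GNT4, GHR, SNTN, SLC25A5 and OOSP2. Of these 11 were transcripts that IV-D embryos held in the oocyte and cleared by the morula. The same held for 57.3% of all higher genes and for 1820 of the 7685 genes compared. BMP15, the growth factor by which the oocyte acts on its follicle, was at 2.02, 48.4 and 56.8, 23.9-fold (95% interval 18.2 to 31.99) and 28.1-fold (95% interval 21.4 to 37.6) higher than in IV-D embryos. ZP4, a glycoprotein of the zona pellucida, was at 5.77, 100.4 and 114, and UCHL1, a ubiquitin hydrolase abundant in oocytes, at 2.32, 52.9 and 101. ACYP2, an acylphosphatase, was at 3.49, 149 and 76.8, and MCUB, an inhibitory subunit of the mitochondrial calcium uniporter, at 5.88, 119.8 and 113. GHR, the receptor of growth hormone, was at 1.14, 17.9 and 26.8, and OOSP2, a secreted protein of the oocyte, at 33.9, 266 and 283.

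The oocyte transcripts among them had come down in the clones too. BMP15 stood at 53.4, 355 and 389 at the 4-cell stage, where both clones were already above IV-D embryos, and MCUB at 649.6, 1273 and 1176. OOSP2 fell in IV-D embryos from an oocyte value of 9461, and in the clones from 6454 in the in vitro matured oocyte. Not every top gene was a transcript of the IV-D oocyte. HBQ1, a globin gene, was at 0.681, 23.9 and 36.2, and CD58, an adhesion molecule, at 2.46, 42.8 and 47.8, both with IV-D oocyte values under 1. Their values in the in vitro matured oocyte are not given here. SLC25A5, an X-linked carrier of ATP and ADP, was at 6.79, 60.1 and 60.01.

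S100A4, a calcium-binding protein that marks fibroblasts, came first in that order, with 0 fragments in IV-D embryos and FPKM values of 23.05 and 18.7 in the clones. Set against 3 fragments in the IV-D sample, NT-D was at least 114-fold and NT-LW at least 92.5-fold higher. At the 4-cell stage the values had been 0, 95.3 and 114, and S100A4 was at 0 in both kinds of oocyte. Of 7 compared genes of the longer fibroblast list 3 were higher in both clones, 0 lower and 4 neither. Besides S100A4 the higher ones were ACTA2, smooth muscle actin, at 0, 3.97 and 1.78, and COL1A2, a chain of type I collagen, at 0.0206, 1.83 and 1.90. COL1A2 rested on 2 fragments in the IV-D sample, and the clones were 88.9-fold (95% interval 24.2 to 741) and 92.3-fold (95% interval 25.1 to 769) above it. COL1A1, the other chain of type I collagen, was at 0.154, 0.156 and 0.213 and COL3A1 at 0.456, 0.443 and 0.458, too low to be compared. PDGFRA, a growth factor receptor of fibroblasts, lay on the other side at 1.25, 0.127 and 0.505 without passing the rule, and with a pseudocount of 0.1 the list had 1 lower member. In pools of embryos, fewer cells with a transcript and less of it per cell cannot be told apart.

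Of 21 compared genes of the oocyte list 12 were higher in both clones and 2 lower, with medians of 1.10 for NT-D and 2.07 for NT-LW. BTG4, the clearance factor named above, was at 16.9, 108 and 289.8, 6.38-fold (95% interval 5.93 to 6.88) and 17.2-fold (95% interval 15.998 to 18.5) higher. H1-8, the linker histone of the oocyte, was at 37.6, 206 and 199, and GDF9, the partner of BMP15, at 1.70, 11.5 and 24.9. WEE2, a kinase of meiotic arrest in the oocyte, was at 7.29, 34.3 and 49.5, and KPNA7, an importin of oocytes, at 3.996, 9.64 and 22.3. MOS, the kinase of meiotic arrest, was at 2.06, 1.83 and 3.21 and not called. The lower ones were CCNB3, an X-linked cyclin, at 27.9, 5.88 and 5.93, and LHX8, a transcription factor of oocytes, at 5.33, 0.784 and 1.07. Of 52 genes of RNA decay and poly(A) control 5 were lower and 3 higher in both clones, the latter BTG4 and the poly(A) regulators CPEB1 and CPEB2.

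Histone lysine methyltransferases and demethylases were largely within the rule. None of 17 compared histone lysine methyltransferases and none of 9 demethylases was called in both clones in either direction, and other members of these families were not analysed here. With rescaling to the same sum 1 methyltransferase and 2 demethylases were lower, against 1503 of all genes. Their differences ran from -1.05 to 0.95 for NT-D and from -0.94 to 1.45 for NT-LW among the methyltransferases, and from -1.28 to 0.42 and from -0.79 to 1.07 among the demethylases. Of 6 genes of DNA methylation 1 was higher in both, UHRF2, a reader of methylated DNA, at 23.5, 73.6 and 49.7. DNMT1, the maintenance methyltransferase, was at 53.6, 88.7 and 240.5 and was called in NT-LW alone. Of 19 genes of histone acetylation 6 were lower (31.6%, against 13.0% of all genes) and 1 higher. HDAC1 was at 29.6, 11.97 and 11.4 and BRDT, a bromodomain protein of germ cells, at 607, 184 and 154. With median-ratio scaling the list had 3 lower genes.

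In signalling of the TGF-beta family, 4 of 19 genes were higher in both clones and 1 was lower. Besides BMP15 the higher ones were SMAD5, at 4.74, 13.5 and 12.9, ID2, at 1.16, 5.74 and 5.14, and FST, at 0, 2.75 and 4.54 with 0 fragments in the IV-D sample. TGIF1, a corepressor of SMAD proteins, was the lower one at 37.2, 6.03 and 12.3. Of 106 ZNF genes, which code for zinc finger proteins, 15 were higher and 1 lower in both clones, with medians of 0.33 and 0.37. ZNF382 was at 2.65, 9.21 and 27.7 and ZNF566 at 21.97, 51.7 and 62.6. With rescaling to the same sum 9 were higher and 6 lower, against 571 higher and 1503 lower of all genes. Of 12 genes known as imprinted in mammals PHLDA2, at 4.28, 21.2 and 13.8, PLAGL1, at 0.388, 5.18 and 3.11, and IMPACT, at 3.87, 8.93 and 11.6, were higher in both, and DIRAS3, at 8.22, 0.335 and 1.87, was lower.

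The other lists gave mixed or small counts. Of 46 cell cycle genes 7 were lower (15.2%, near the 13.0% of all genes) and 0 higher, among them CCNB1, the mitotic cyclin, at 965, 457 and 342, and ORC1, of the origin recognition complex, at 38.7, 11.5 and 9.82. Of 24 genes of the p53 response and apoptosis 3 were lower and 4 higher, with PMAIP1, which promotes cell death, at 14.2, 36.5 and 58.6 and BAD, of the same BCL2 family, at 614, 212 and 143. Of 29 genes of the NRF2 response and glutathione 7 were lower and 4 higher. HMOX1, heme oxygenase, was at 23.2, 3.69 and 4.45, and SOD1, the cytosolic superoxide dismutase, at 4.08, 22.8 and 47.2. Of 74 splicing factors 8 were lower (10.8%) and 2 higher, of 34 proteasome genes 3 (8.82%) and 1, and of 19 genes of the unfolded protein response 2 (10.5%) and 0, all shares under the 13.0% of all genes. With rescaling to the same sum 12 cell cycle genes, 16 splicing factors, 6 proteasome genes and 4 genes of the unfolded protein response were lower. The lower genes over all genes then numbered 1503, against 999 as deposited, so these counts rose with the background. SF3B4, of the U2 particle, had the largest deficit among the splicing factors, at 186, 24.2 and 14.2. Of 2 compared cumulus cell markers none was called in both clones. The list medians differed in sign between the clones for the p53 genes (-0.37 for NT-D and 0.18 for NT-LW) and the NRF2 genes (-0.22 and 0.31), and for the p53 genes the NT-LW median was -0.05 once FPKM values were rescaled to equal sums. Of the genes that the study singles out at this stage 15 are analysed here. Of these 10 were lower and 5 higher in both clones, and since that list was chosen on samples that include these its direction is no independent evidence.

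The in vivo embryos themselves give a scale for these differences that does not use the 8-cell samples. It rests on IV-D samples alone, so traits particular to IV-D embryos enter the choice of genes and can favour the IV-D 8-cell sample. By the levels in IV-D oocytes and morulae, 2812 compared genes were embryonic transcripts, which reached FPKM 5 in the morula and lay more than 1 log2 unit above the oocyte. Of these 684 (24.3%) were lower and 73 (2.60%) higher in both clones. Another 1820 compared genes were cleared oocyte transcripts, with at least 5 in the oocyte and more than 1 log2 unit less in the morula, and of these 45 (2.47%) were lower and 378 (20.8%) higher. Of 3053 other genes 270 (8.84%) were lower and 209 (6.85%) higher. Put the other way, embryonic transcripts made up 68.5% of the genes lower in both clones, and cleared oocyte transcripts 57.3% of those higher in both. The backgrounds of 13.0% lower and 8.59% higher lay between the classes.

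In IV-D embryos 1529 genes rose by more than 2 log2 units from the 4-cell stage to the morula, and at the 8-cell stage the median gene had covered 81.4% of that rise. Measured from the IV-D 4-cell to the IV-D morula level, the median reached 57.3% for NT-D and 57.6% for NT-LW. A further 1218 genes fell by as much, and the median share of the fall reached was 83.7% for IV-D, 63.8% for NT-D and 55.1% for NT-LW. At least 50% of the rise had been covered by 1305 genes for IV-D, 899 for NT-D and 893 for NT-LW. Both clone shares lay below the in vivo share, for the rise and for the fall, under each scaling and pseudocount tried. By the morula the median level of the rising genes was 5.34, 5.22 and 5.36 in IV-D, NT-D and NT-LW embryos on the log2(FPKM + 1) scale. The falling genes were apart there, at 1.19, 2.85 and 1.93, and the NT-D median had been 2.68 at the 8-cell stage. The IV-D morula value helped to choose both sets of genes. The distance between groups at the morula is therefore not independent of that choice. The clone shares at the 8-cell stage are likewise measured between IV-D end points, which the clones need not share.

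**Figure D4:**
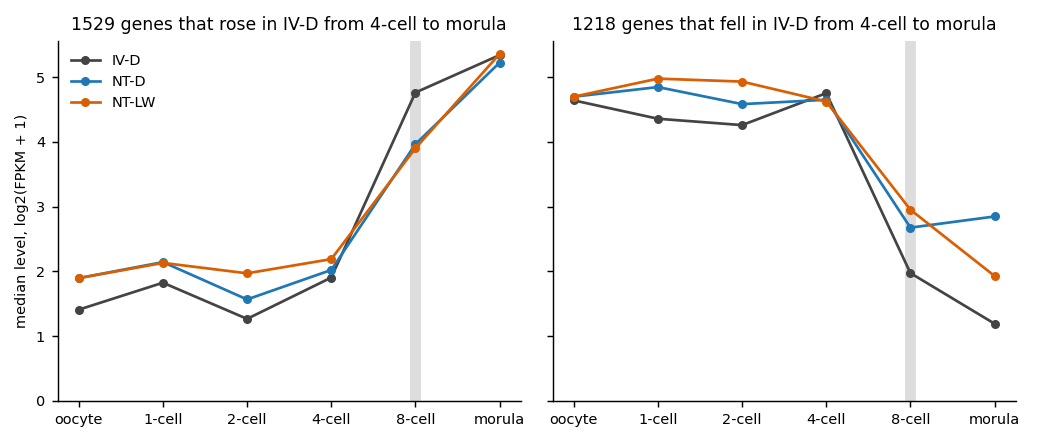
Median log2(FPKM + 1) from oocyte to morula of the 1529 genes that rose (left) and the 1218 that fell (right) in IV-D embryos between the 4-cell stage and the morula, 1 sample per point; the grey bar marks the 8-cell stage and both clone groups share 1 oocyte sample. The lines lie close together at the 4-cell stage and part at the 8-cell stage. At the morula they meet for the rising genes but not for the falling ones. The IV-D 4-cell and morula values chose these genes, so distances at those stages are not independent of that choice.

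Of the 999 lower genes 779 gained more than 1 log2 unit from the 4-cell to the 8-cell stage in IV-D embryos, and 224 of these (28.8%) gained as much in both clones, each from its own 4-cell level. Of the 660 higher genes 410 lost more than 1 unit in IV-D embryos, and 278 of these (67.8%) lost as much in both clones. These counts use the 8-cell values that chose the genes and describe them only. An FPKM value under 1 in the IV-D oocyte was found for 505 (50.6%) of the lower and 93 (14.1%) of the higher genes, against 1945 (25.3%) of all genes compared.

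The stages before and after were not used by the rule. At the 4-cell stage 538 of 7628 genes (7.05%) were lower and 545 (7.14%) higher in both clones than in IV-D embryos. Of the 770 lower genes of the 8-cell stage that could be compared there, 111 (14.4%) were lower and 37 (4.81%) higher. Of 625 higher genes 121 (19.4%) were higher and 21 (3.36%) lower. Most genes of both sets were thus not called in both clones 1 cleavage earlier.

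In morulae 114 of 7950 genes (1.43%) were lower in both clones and 359 (4.52%) higher. Of 976 lower genes that could be compared there 67 (6.86%) were lower again and 9 (0.922%) higher, and 717 (73.5%) lay within 1 log2 unit of IV-D morulae in both clones, a share near the 69.3% of all genes. Of 638 higher genes 126 (19.7%) were higher again and 5 (0.784%) lower, and 200 (31.3%) lay within 1 unit. The median difference of the lower genes was -0.09 and -0.25 in NT-D and NT-LW morulae, and that of the higher genes 1.03 and 0.73, against 0.22 and 0.20 for all genes. With median-ratio scaling 116 genes were lower and 84 higher at both stages, so that the lower ones outnumbered the higher. The 126 higher at both stages became 243 with a pseudocount of 0.1 and 68 with a minimum FPKM of 5.

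Of the 15 genes that topped the lower side 6 were lower again in both clone morulae, and 9 were not. Among the latter CKB stood at 1708, 1877 and 1642 in IV-D, NT-D and NT-LW morulae, and ARG1 at 354, 197 and 420.1. ENO1 was at 161, 225 and 64.2 and CLDN6 at 138, 109 and 28.7, and for both NT-LW was the lowest of the 3 morula samples. TEAD4 was at 16.2, 19.2 and 14.3 and KLF5 at 47.9, 56.002 and 54.9. Of the 19 lower genes of ribosome biogenesis 1, NCL, was lower again, and of the 11 lower junction genes 1, DSC2, at 75.1, 28.4 and 15.4. None of the 5 lower trophectoderm and Hippo genes was lower again, and none of the 10 lower genes of oxidative phosphorylation.

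The 6 that were lower again were TYR, NAA11, ASZ1, DSC2, RPL10L and EFHD1. ASZ1 was at 33.8, 1.85 and 0.357 in morulae, HORMAD1 at 29.3, 6.25 and 0.679 and SYCP3 at 34.8, 0.572 and 1.58. NAA11 was at 37.4, 1.99 and 0 and RPL10L at 32.1, 5.66 and 0.0879. ADAD1, an RNA-binding protein of the testis, was at 13.1, 1.85 and 2.51 after 18.5, 2.24 and 2.98 at the 8-cell stage. TYR was at 22.9, 0.245 and 0 and EFHD1 at 14.9, 1.17 and 2.18. PLD6 was the exception at 10.2, 13.3 and 7.92. In each of the genes named in this paragraph except PLD6 both clone morulae lay below the IV-D morula, and in ASZ1 and TYR no clone sample of the 8-cell stage or the morula reached an FPKM value of 2.

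Of the 15 genes that topped the higher side 13 were higher again in both clone morulae. NT-D morulae held more than NT-LW morulae of BMP15 at 0.585, 116 and 5.90, of UCHL1 at 1.30, 158 and 35.6 and of BTG4 at 2.72, 111 and 13.98. In NT-D 8-cell embryos BMP15 was at 48.4 and UCHL1 at 52.9, so both values were higher in the morula sample. BTG4 of NT-D was no lower in the morula than at the 8-cell stage. The reason was not tested. Of the sterol genes MSMO1 stood at 23.6, 28.9 and 62.5 and SQLE at 2.71, 6.05 and 4.82. Of the 12 higher oocyte transcripts 7 were higher again, and of the 8 higher cholesterol genes 1, FDFT1, at 6.33, 41.9 and 17.6. S100A4 was at 0, 1.76 and 5.42.

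**Figure D5:**
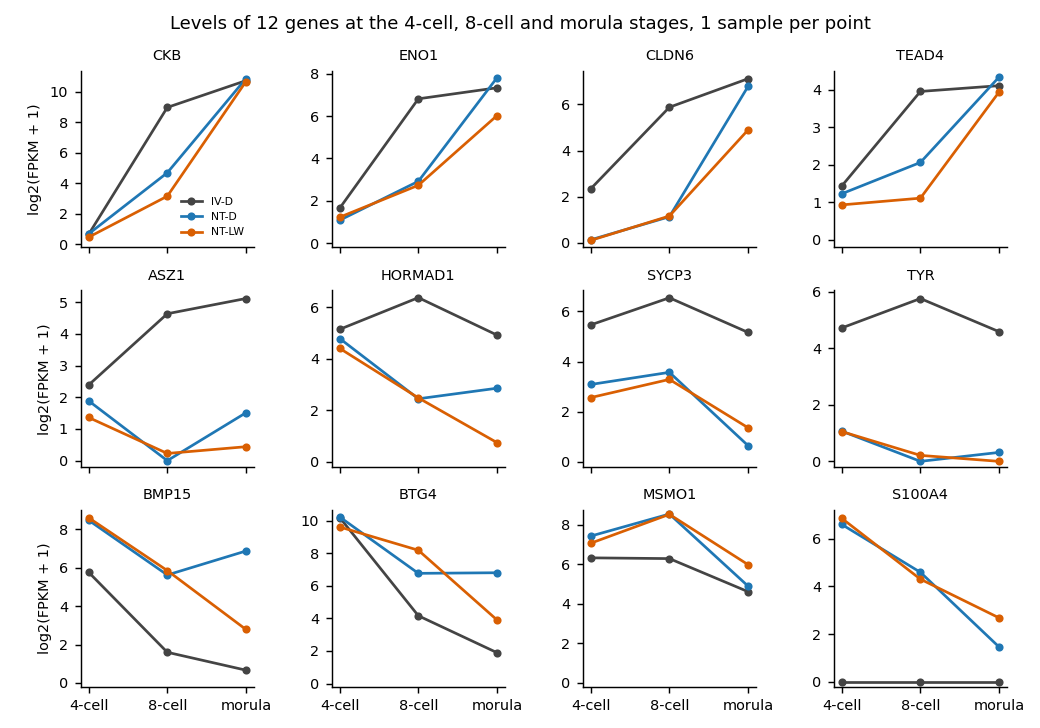
Level of 12 genes as log2(FPKM + 1) at the 4-cell, 8-cell and morula stages in IV-D, NT-D and NT-LW embryos, 1 sample per point. In the top row the clones gain most between the 8-cell stage and the morula. In the middle row the clones stay below IV-D embryos. In the bottom row the clones lie above IV-D embryos at the 8-cell stage. BMP15 and BTG4 of NT-D are no lower at the morula than at the 8-cell stage.

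What the sets share beyond their levels was read from the table and the annotation. The median length of a gene was 2765 bases for the lower, 2407.5 for the higher and 3092 for all compared genes. Positions were known only for genes with a symbol, 763 (92.5%) of the 825 lower ones, 461 (91.1%) of the 506 higher ones and 92.9% of all with a symbol. Over whole sets the shares are under 80%, so for genes without a symbol these checks are void. The median GC content of exons was 52.6% in the lower genes, 44.9% in the higher and 46.5% in all. In the third of genes with the highest GC content 20.8% were lower in both clones, against 6.65% in the third with the lowest. After centring the differences within 10 bins of GC content, a choice made after the data were seen, 571 genes were lower, 527 of them among the 763, and 508 higher, 397 of them among the 461. The part of GC content in the result was not tested further.

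Genes of the X chromosome were called lower more often. Of 225 compared X-linked genes 54 (24.0%) were lower and 13 (5.78%) higher in both clones, with medians of -0.52 and -0.40. They made up 7.08% of the lower genes with a known position, 2.82% of the higher and 3.67% of all. Of the 46 genes with a known position that were lower at both the 8-cell and the morula stage, 9 (19.6%) were X-linked, among them PORCN, which modifies WNT proteins, at 35.1, 1.78 and 0.801 in 8-cell embryos and 77.3, 7.70 and 12.1 in morulae. IDH3G, of the citric acid cycle, was at 13.1, 0.931 and 0.835 and MPC1L, a pyruvate carrier subunit of the testis, at 126, 10.3 and 1.41. TIMM17B, of the mitochondrial import channel, was at 85.2, 22.2 and 22.2. EIF1AY, the Y-linked gene of an initiation factor with an X-linked copy, was at 13.8, 36.3 and 41.3. Since all clones are male and the IV-D pool mixed male and female embryos in unstated numbers, sex and cloning cannot be told apart for these genes. Without the X-linked genes 945 genes were lower and 647 higher in both clones.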

How the data were processed

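Total RNA of pools of morphologically normal embryos was amplified from its poly(A) tails with SMART-Seq v4 and sequenced in pairs. The authors deposited 1 table of FPKM values (fragments scaled to gene length and library depth) for 23 samples, which holds 1 library per group and stage. Replicates that the study describes are not analysed here. The submitters' processing notes name HISAT2 2.0.4, HTSeq 0.9.1, DESeq and the build Sscrofa11.1, and the name of the table marks its 8603 genes as differentially expressed. The contrasts that selected them are not given in the sources used here. Amplification and poly(A) selection can favour some transcripts, and FPKM values share 1 total per sample, so a rise of a few abundant genes lowers all others.

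Low FPKM values are whole multiples of the value of 1 fragment, and whole fragments were recovered for 100% of the 8603 genes, checked to a relative deviation of at most 4.97e-10 against values of at least 1000 fragments. Recovered depths ran from 14952784 to 22991067 fragments per sample, and 94.5% to 95.3% of the depth lay in the table for the 8-cell samples. With 1 sample per group there are no biological replicates, no p-value is given, and the exact 95% intervals of folds between 2 libraries cover counting error only. A count of 0 was replaced by 3 fragments for a lower bound.

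Genes were called by the fold rule on log2(FPKM + 1) with python 3.11.15, numpy 2.4.6, pandas 2.3.3 and scipy 1.17.1. The rule was run on simulated counts that held counting error and large planted changes only. They had no variation between pools or from amplification, so they cannot show how often the rule miscalls with 1 library per group. Other settings tried were median-ratio scaling, rescaling each sample to the same sum, a log2 difference over 2, an FPKM minimum of 5, a pseudocount of 0.1, and for the recovered fragments an exact binomial test with a Benjamini-Hochberg adjusted p under 0.005, which compares 2 libraries and not 2 conditions. Members and gene lists were chosen with earlier results of these data known.

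Named genes are the 15 in each direction with the largest smaller difference, up to 6 members of each of 31 lists in each direction, all members of 6 of the lists, those the study singles out and the 5 nearest to each side of the threshold. HORMAD1, SYCP3, ADAD1, MPC1L, PORCN, IDH3G, TIMM17B, EIF1AY, NAA10, CDH1, COL1A1, COL3A1, FBL, NCL, JUP, GDF9, KPNA7, WEE2, MOS, PDGFRA, IDI1, ZNF566, LDHB, NUDT7, SNORD45A, ENSSSCG00000011673 and ENSSSCG00000035520 lie outside this rule and were chosen after the values were seen. Positions, exons and upstream sequence come from RefSeq on Sscrofa11.1, matched by symbol for 6853 of 7371 genes with a symbol. The study's donor cells and its own lists of differing genes were not used here.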

Additional observations from a re-analysis of the deposited data

Results flagged for a closer look

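For 4 genes the 2 clone samples lay on opposite sides of the in vivo 8-cell sample, each past the fold rule. All 4 were lower in NT-D and higher in NT-LW embryos, the difference between the clones was not tested, and each group is 1 sample. LDHB, the lactate dehydrogenase subunit of aerobic tissues, was at 30.0, 7.38 and 103.8 FPKM in IV-D, NT-D and NT-LW 8-cell embryos, so that NT-LW exceeded NT-D by 3.64 on the log2(FPKM + 1) scale. NUDT7, a hydrolase of coenzyme A in peroxisomes, was at 43.4, 21.0 and 89.8, with a gap of 2.04. ENSSSCG00000011673, which has no symbol in the table, was at 4.04, 0.631 and 9.25, with a gap of 2.65. SNORD45A, a small nucleolar RNA gene of 83 bases, was at 21.1, 8.74 and 131.1, with a gap of 3.76. Reads of its host transcript cannot be told apart from its own.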

How the results depend on the processing

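No named gene past the rule changed its direction under median-ratio scaling, rescaling or the pseudocount of 0.1. List medians near 0 changed sign with rescaling: for NT-D from 0.03 to -0.23 in oxidative phosphorylation, for both clones from 0.05 and 0.10 to -0.20 and -0.16 in the histone methyltransferases, and for NT-LW from 0.18 to -0.05 in the p53 list. With a log2 difference over 2 the counts were 224 lower and 109 higher in both clones, 279 and 145 for NT-D, and 352 and 249 for NT-LW. Rescaling to the same sum gave 1503 lower in both clones, which included all 999, and 571 higher, which included 510 of the 660. The other counts of genes in both clones lay within 1.5 times, from 838 to 1259 lower and from 459 to 946 higher, the highest being those of the exact binomial test on fragments. That test included 997 of the 999 lower and 658 of the 660 higher genes.

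The median share of the in vivo rise was 61.7% for NT-D and 62.0% for NT-LW with a pseudocount of 0.1. It was 83.9%, 51.0% and 50.1% in IV-D, NT-D and NT-LW embryos after rescaling, and 78.5% in IV-D and 52.7% in NT-LW embryos with median-ratio scaling. The share of the fall was 77.6%, 56.0% and 47.9% with a pseudocount of 0.1, 69.0% for NT-D and 61.2% for NT-LW after rescaling, and 86.3% in IV-D and 61.1% in NT-LW embryos with median-ratio scaling. Genes higher at the 8-cell stage and again in morulae numbered 243 with a pseudocount of 0.1 and 68 with a minimum FPKM of 5, and those lower at both stages 116 with median-ratio scaling, which left 84 higher ones and so turned the balance of 67 lower and 126 higher. Why these values moved was not tested.

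Among 600 differences of 300 named genes, median-ratio scaling took 17 below the rule and brought 7 past it, rescaling took 26 below and brought 21 past it, and the pseudocount of 0.1 brought 28 past it. Leaving out the X-linked genes, chosen after seeing the data, gave 58 lower and 125 higher genes that differed again in morulae.

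No paired analysis was possible because each group is 1 sample at each stage. For the same reason no sample was left out. The features in which the pools differ cannot be told apart, and for a gene with few fragments a small difference was not detectable at this depth.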

Other observations

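The 67 genes that were lower in both clones at the 8-cell stage and again in the morulae could be read once more in the blastocyst, which was cut into a piece holding both inner cell mass and trophectoderm (IT) and a piece of trophectoderm alone (TE). In IT 30 of 53 compared genes (56.6%) were lower in both clones and 2 higher, against 742 of 7185 (10.3%) lower over all genes. In TE 18 of 50 (36.0%) were lower and 2 higher, against 178 of 6829 (2.61%). The 126 genes higher at both earlier stages were higher in both clones for 22 of 101 (21.8%) in IT, against 5.97% of all genes, and lower for 9 (8.91%), against 10.3%. In TE 4 of 80 (5.00%) were higher, against 1.63% of all genes, and 6 (7.50%) lower, against 2.61%.

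Many genes passed the rule in 1 clone sample alone. On the lower side these were 298 genes for NT-D and 317 for NT-LW. On the higher side they were 147 for NT-D and 584 for NT-LW.

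The gene with the largest difference of all has no symbol in the table. ENSSSCG00000035520, with a length of 225 bases, was at 44.1 FPKM in IV-D 8-cell embryos and at 33076 and 35929 in NT-D and NT-LW 8-cell embryos, from 204, 143561 and 132255 fragments. It was at 23556 and 27607 in the clones and 40.7 in IV-D embryos at the 4-cell stage, and at 35077 and 13368 against 43.4 in morulae. In the oocyte it was at 4.17 in the in vivo sample and at 5200 in the sample matured in vitro.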
